A study of Mus musculus with 12 samples.

Results

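The transcripts described here encode the F-box proteins and the core subunits of cullin-RING ubiquitin ligases in the brain of R6/2 HD mice and their WT littermates. They were chosen by symbol, as every row whose name begins with Fbxo, Fbxl or Fbxw or with Cul followed by a number, together with Skp1a, Skp2, Rbx1 and Btrc. The rule found 90 of the 23282 gene rows. These comprised 37 Fbxo rows, 19 Fbxl rows, 22 Fbxw rows, 8 cullins and the 4 genes named singly. One of the Fbxl rows, Fbxl12os, is an antisense RNA and encodes no F-box protein.

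A cullin-RING ligase attaches ubiquitin to proteins that are to be degraded. In the SCF type, cullin 1 is the scaffold, Rbx1 recruits the ubiquitin-conjugating enzyme, Skp1 is the linker, and an exchangeable F-box protein binds the substrate. F-box proteins are named by the domain that touches the substrate, with WD repeats in Fbxw, leucine-rich repeats in Fbxl and other or no recognised domains in Fbxo. FBXW7 binds phosphorylated motifs in cyclin E, MYC, Notch and JUN, and in neurons it is known for its role in differentiation. The other cullins work with other adaptors, such as BTB proteins on cullin 3 and DDB1 on cullin 4A.

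The series held 12 QuantSeq libraries, which read the 3′ ends of polyadenylated transcripts from whole tissue. R6/2 mice carry, under the human HTT promoter, a transgene of its first exon with a long CAG repeat. HD mice gave 2 libraries each of striatum and cortex at 8 weeks, the pre-symptomatic age, and 2 of each at 13 weeks, the post-symptomatic age. WT littermates gave 1 library for each region and age. The labels name no other allele and no treatment for any group. They also do not say whether a striatum and a cortex library with the same number came from 1 mouse.

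The total count per library lay between 8814386 and 12091201, and levels are given as CPM, the counts scaled to a common library size with edgeR's TMM factors. Cortical neuron markers summed to between 1030 and 1688 CPM in the cortex libraries and to between 18.98 and 154.1 CPM in the striatum libraries. Striatal neuron markers summed to between 7114 and 7737 CPM in WT striatum and to between 133.7 and 372.8 CPM in cortex, although Drd2, one of the 9, had at most 4 counts in any library. Among HD striatum libraries the striatal sum was 7335 CPM in replicate 1 at 8 weeks, 2309 CPM in replicate 2 at 8 weeks, and 1386 and 1411 CPM at 13 weeks. Replicate 2 of HD striatum at 8 weeks also stood apart in its oligodendrocyte markers, at 19160 CPM against 2174 to 6785 CPM elsewhere, and in its thalamus markers, at 789.2 CPM against 21.57 to 70.76 CPM. Choroid plexus markers were at 2988 CPM in replicate 2 of HD cortex at 13 weeks and at 940.4 CPM in that striatum library, against at most 110.2 CPM in the others. In tissue of this kind, fewer cells of a type and less RNA per cell cannot be told apart. By Xist and Y-linked counts, replicate 1 of each HD group was male and replicate 2 female, and the WT libraries were female at 13 weeks and male at 8 weeks.

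The windows around the annotated start sites are shown for the genes that changed with stage in HD mice and had an entry in RefSeq (GRCm38.p6), because the 3′ counts add up transcripts from all starts of a gene. Each window runs from 250 bases before a start to 50 bases after it, on the plus strand for these 3 genes, and capitals mark the GC box GGGCGG or its reverse complement CCGCCC. Fbxw7 had 3 such starts, with windows at chr3:84815327-84815626, chr3:84863895-84864194 and chr3:84951961-84952260. The windows lie at chr2:25500500-25500799 for Fbxw5 and at chr8:13105373-13105672 for Cul4a.
Fbxw7 start 1: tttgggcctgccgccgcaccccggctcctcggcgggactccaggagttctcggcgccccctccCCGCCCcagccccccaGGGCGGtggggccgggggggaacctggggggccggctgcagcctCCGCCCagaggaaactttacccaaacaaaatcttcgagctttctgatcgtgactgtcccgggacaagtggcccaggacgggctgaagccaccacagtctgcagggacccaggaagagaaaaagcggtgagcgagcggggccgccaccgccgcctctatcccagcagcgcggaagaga
Fbxw7 start 2: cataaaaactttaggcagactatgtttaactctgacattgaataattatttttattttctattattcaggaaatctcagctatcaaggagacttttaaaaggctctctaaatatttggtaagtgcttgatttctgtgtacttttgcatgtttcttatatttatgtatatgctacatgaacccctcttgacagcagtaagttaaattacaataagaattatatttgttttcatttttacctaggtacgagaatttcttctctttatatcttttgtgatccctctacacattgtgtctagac
Fbxw7 start 3: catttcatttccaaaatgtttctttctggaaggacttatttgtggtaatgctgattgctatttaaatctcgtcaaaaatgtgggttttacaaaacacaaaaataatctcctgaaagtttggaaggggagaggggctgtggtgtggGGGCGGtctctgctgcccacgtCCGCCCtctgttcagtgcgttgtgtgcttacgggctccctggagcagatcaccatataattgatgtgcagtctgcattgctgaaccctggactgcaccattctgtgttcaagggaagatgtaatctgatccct
Fbxw5: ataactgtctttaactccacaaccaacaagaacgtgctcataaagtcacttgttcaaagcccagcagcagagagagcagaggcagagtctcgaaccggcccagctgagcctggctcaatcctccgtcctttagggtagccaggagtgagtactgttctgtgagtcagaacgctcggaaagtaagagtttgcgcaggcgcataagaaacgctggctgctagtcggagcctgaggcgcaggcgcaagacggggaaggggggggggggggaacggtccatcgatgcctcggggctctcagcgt
Cul4a: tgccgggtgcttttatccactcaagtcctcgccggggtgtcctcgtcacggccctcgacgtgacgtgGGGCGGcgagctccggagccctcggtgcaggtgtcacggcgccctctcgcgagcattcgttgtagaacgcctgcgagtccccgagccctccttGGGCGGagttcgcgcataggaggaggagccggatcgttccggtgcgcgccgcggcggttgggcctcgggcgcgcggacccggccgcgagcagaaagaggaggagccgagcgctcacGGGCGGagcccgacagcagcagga

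The 3 Fbxw7 windows differed in composition. The first was 69.0% G or C and held 3 GC boxes and 24 CG pairs, the second was 29.7% G or C with 1 CG pair and no GC box, and the third was 46.0% G or C with 2 GC boxes. The Cul4a window was 71.0% G or C with 3 GC boxes, and that of Fbxw5 was 57.3% G or C with none. Across the 90 windows found for 66 members, 57.8% held a GC box on either strand, against 35.7% of all 32851 windows, and the median G or C content was 58.7% against 52.7%. The E-box CACGTG was present in 7.78% of member windows and 7.15% of all, the CCAAT box (CCAAT or ATTGG) in 28.9% and 37.4%, and the cyclic AMP response element TGACGTCA in 1.11% and 1.79%. None of the 5 printed windows held any of these last 3 motifs. The counts cannot say from which start the Fbxw7 transcripts began.

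Expression of the family was uneven. No count was found in any library for 9 members, and 12 others stayed under 10 counts in every library. Of the 22 Fbxw rows, 14 were in one of these classes, and 13 of those lie side by side on chromosome 9 between 109139447 and 109790670 (GENCODE M21, GRCm38), all on the minus strand. The 8 Fbxw genes left were Fbxw2, Fbxw4, Fbxw5, Fbxw7, Fbxw8, Fbxw9, Fbxw11 and Fbxw17. After edgeR's filter on low counts, 66 members were tested in the HD libraries, of which 30 were Fbxo, 16 Fbxl, 8 Fbxw, 8 cullins and the 4 single genes. The fit of all 12 libraries tested 67, the added member being Fbxl12os. All members together summed to between 2987 and 4237 CPM per library.

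The first comparison asked how each member changed in HD mice between 8 and 13 weeks, over both regions. Fbxw7 and Fbxw5 fell, while Fbxl5 and Cul4a rose. With an adjusted p under 0.05 from edgeR's quasi-likelihood test, these 4 were 6.06% of the 66 members tested, close to the 6.45% called among all 13944 genes. Of all genes, 1.93% were called higher and 4.53% lower, while the members divided evenly between the directions at 3.03% each. The median log2 fold change was 0.12 over the members and 0.00 over all genes. Before adjustment, 17 members had a p under 0.05. By subfamily, 2 of 8 Fbxw genes fell, 1 of 16 Fbxl genes and 1 of 8 cullins rose, and 0 of 30 Fbxo genes passed the test. Their median log2 fold changes were 0.02, 0.15, 0.11 and 0.12.

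**Figure D1:**
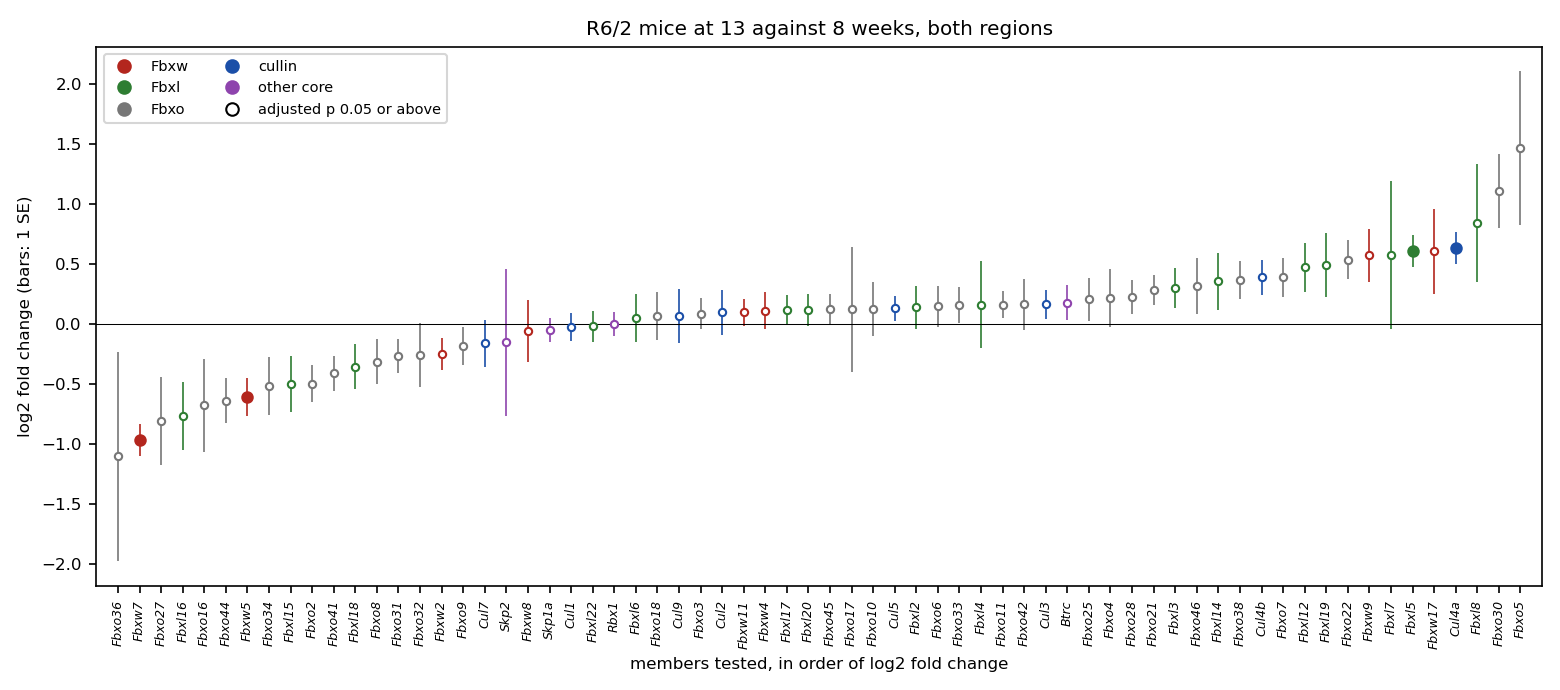
Log2 fold change of each of the 66 members tested in HD mice at 13 weeks against 8 weeks over both regions, in rising order, with bars of 1 SE and colours for the subfamily. Filled points are the 4 members with an adjusted p under 0.05, Fbxw7 (-0.96), Fbxw5 (-0.61), Fbxl5 (0.61) and Cul4a (0.63), and Fbxo36 (-1.10), with an SE of 0.87, lies below Fbxw7.

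Fbxw7 (chromosome 3, 84815268 to 84979198, plus strand, overlapped by Gm37726 on its own strand and Gm37240 on the other) had 256 and 240 CPM in HD striatum at 8 weeks and 163 and 139 CPM at 13 weeks. In HD cortex it had 724 and 703 CPM at 8 weeks and 301 and 304 CPM at 13 weeks. Every library of the later age was thus below every library of the earlier age in its region. The level at 13 weeks was 51.2% of that at 8 weeks over both regions (log2 fold change -0.96, SE 0.14, edgeR adjusted p = 0.00524). Among the 66 members this was the lowest p and the lowest fold change but for 1. The only lower value was that of Fbxo36 (-1.10, SE 0.87, adjusted p = 0.504), which had between 1 and 21 counts per library. The next higher was that of Fbxo27 (-0.80, SE 0.37, adjusted p = 0.227), a member of the F-box group that binds glycoproteins. Among all genes tested, 5.74% had a lower fold change than Fbxw7.

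Fbxw5, a substrate receptor known to act on the centriole protein SAS-6, is a short gene on chromosome 2 (25500750 to 25505471). It had 42.4 and 31.2 CPM in HD striatum at 8 weeks and 24.3 and 21.9 CPM at 13 weeks. In HD cortex it had 43.3 and 33.3 CPM at 8 weeks and 28.8 and 22.5 CPM at 13 weeks. The groups did not overlap in either region, and the log2 fold change was -0.61 (SE 0.16, edgeR adjusted p = 0.0481). C8g overlaps it on the opposite strand, so its reads could have been counted with it where counting ignored strand.

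Fbxl5 (chromosome 5, 43744615 to 43821638, minus strand) encodes the iron-binding receptor that degrades the iron regulatory protein IRP2. It had 41.4 and 32.8 CPM in HD striatum at 8 weeks and 47.6 and 53.3 CPM at 13 weeks, and in HD cortex 31.0 and 33.3 CPM rose to 49.8 and 57.6 CPM. Its log2 fold change was 0.61 (SE 0.13, edgeR adjusted p = 0.0273). Bst1 overlaps it on the opposite strand.

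Cul4a (chromosome 8, 13105621 to 13147940, plus strand) is the scaffold of ligases that act in nucleotide excision repair and replication licensing. It had 19.1 and 18.7 CPM in HD striatum at 8 weeks and 27.9 and 31.2 CPM at 13 weeks, and in HD cortex 18.5 and 20.8 CPM against 31.6 and 28.1 CPM. Its log2 fold change was 0.63 (SE 0.13, edgeR adjusted p = 0.0238). Of these 4 members, only Fbxw7 kept an adjusted p under 0.05 with each of the 8 HD libraries left out in turn (highest 0.0387). Fbxl5 and Cul4a lost it without any 1 of the 6 libraries other than those of HD striatum at 8 weeks (highest adjusted p 0.115 and 0.0966), and Fbxw5 lost it without any 1 of 7 (highest 0.173), all but replicate 2 of HD striatum at 8 weeks. Fits without a library of HD striatum at 8 weeks lack the spread of the pair that differed most. Its chi-square per degree of freedom was 78.2, against 7.23 to 20.3 for the other pairs. Calls kept or gained in these fits therefore rest on a spread without the difference within that pair. With group and replicate number as a random block in voom, Fbxw5 did not pass (-0.60, adjusted p = 0.0636) and the other 3 did. An exact permutation of stage within region gave p = 0.0556 for each of the 4 members (two-sided, 36 arrangements), the smallest value it allows. Any gene whose groups did not overlap in the same direction in both regions reaches that value (9.35% of all genes higher, 11.3% lower). The 4 were picked from the same libraries, so this test adds no support.

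Without an overlap of the groups in either region, 9 of the 66 members were higher at 13 weeks (13.6%, against 9.35% of all genes) and 5 were lower (7.58%, against 11.3%). The 9 were Cul3, Cul4a, Fbxl5, Fbxo5, Fbxo7, Fbxo22, Fbxo30, Fbxo38 and Fbxw9, and the 5 were Fbxw5, Fbxw7, Fbxl16, Fbxo8 and Fbxo44. Among the WD-repeat receptors, the 6 other Fbxw genes that were tested had no adjusted p under 0.05, and their log2 fold changes lay between -0.25 for Fbxw2 (SE 0.13) and 0.61 for Fbxw17 (SE 0.35). Fbxw9 had 6.79 and 8.29 CPM in HD striatum at 8 weeks and 11.3 and 14.2 CPM at 13 weeks, and in HD cortex 8.17 and 11.6 CPM against 11.8 and 13.9 CPM (0.57, SE 0.22, adjusted p = 0.153). The paralogues Btrc and Fbxw11, which encode the β-TrCP proteins that bind β-catenin and IκB, had log2 fold changes of 0.18 (SE 0.14, adjusted p = 0.511) and 0.10 (SE 0.11, adjusted p = 0.658).

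**Figure D2:**
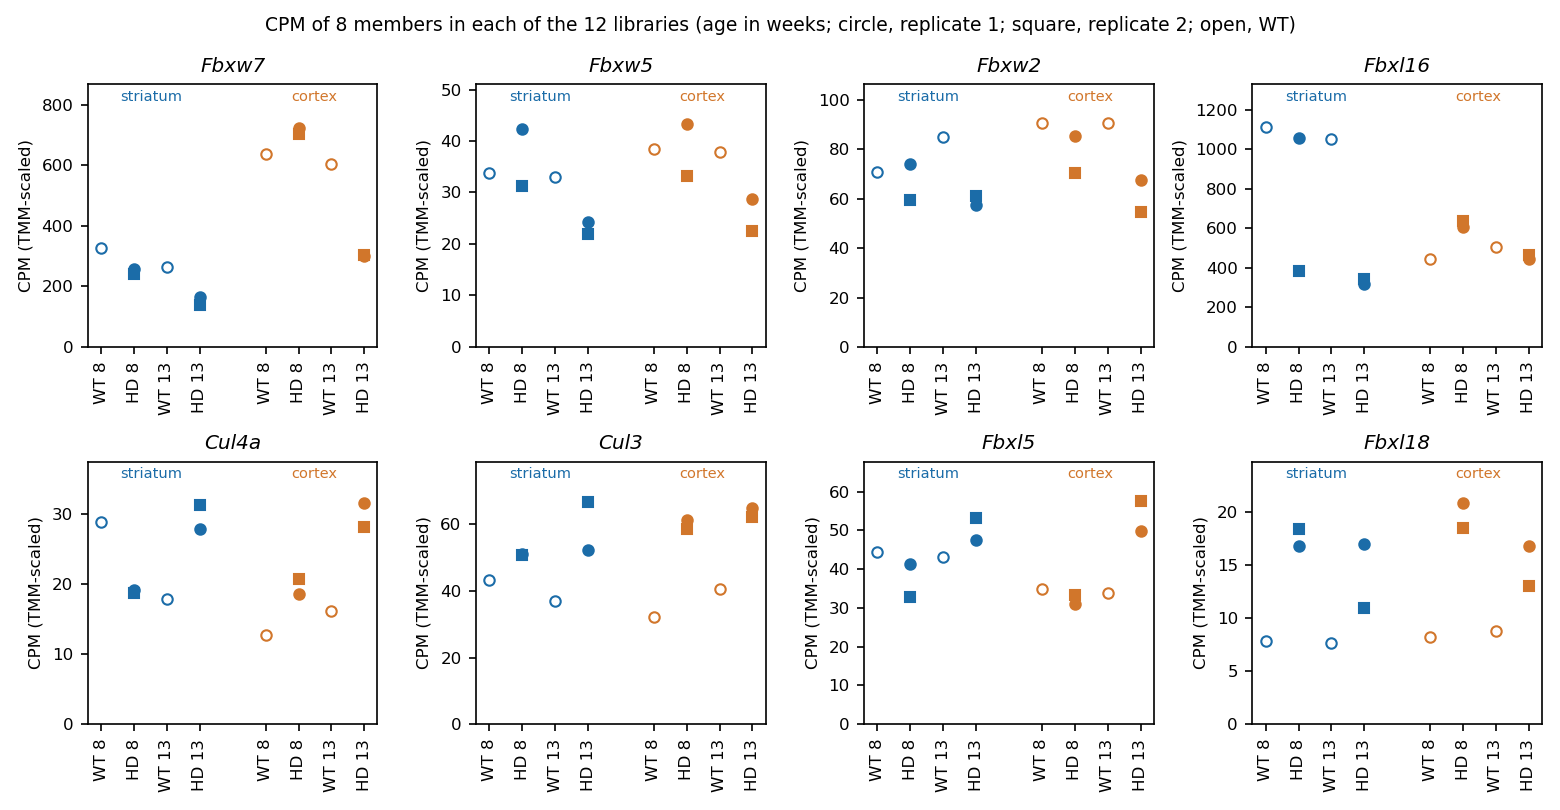
CPM of 8 members in each of the 12 libraries, with striatum in blue and cortex in orange, WT libraries as open symbols, replicate 1 as circles and replicate 2 as squares, and genotype and age in weeks on the horizontal axis. The HD libraries at 13 weeks are the lowest of their region for Fbxw7 (139 and 163 CPM in striatum, 301 and 304 CPM in cortex) and Fbxw5, and the WT libraries of Fbxl18 lie between 7.63 and 8.81 CPM, below all HD libraries.

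No gene of the SCF core passed the test over the same interval. Skp1a, the linker, had 224 and 247 CPM in HD striatum at 8 weeks and 223 and 211 CPM at 13 weeks (log2 fold change -0.05, SE 0.10, adjusted p = 0.829 over both regions). Rbx1, the RING subunit, had 95.9 and 98.5 CPM against 104 and 97.1 CPM in striatum (0.00, SE 0.10, adjusted p = 0.997). Cul1, the scaffold, had a log2 fold change of -0.03 (SE 0.12, adjusted p = 0.922). Skp2, the receptor for the cell-cycle inhibitor p27, was scarce at 0.945 to 5.69 CPM and had a fold change of -0.15 with an SE of 0.61 (adjusted p = 0.916). Of 5 SCF genes, the core subunits Cul1, Skp1a and Rbx1 and the receptors Skp2 and Btrc, 0 had an adjusted p under 0.05 in this comparison. Their median log2 fold change was -0.03. The 95% intervals reached from -0.25 to 0.15 for Skp1a, from -0.20 to 0.20 for Rbx1 and from -0.26 to 0.20 for Cul1. Changes within these bounds were compatible with the counts. The intervals use a normal quantile of the SE, which makes them narrow for so few libraries.

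Of the 8 cullins, Cul4a alone had an adjusted p under 0.05. Its paralogue Cul4b had a log2 fold change of 0.39 (SE 0.15, adjusted p = 0.146). Cul3, the scaffold used by BTB adaptors such as Keap1, was at 0.17 (SE 0.12, adjusted p = 0.466) and Cul5, the scaffold for SOCS-box proteins, at 0.13 (SE 0.11, adjusted p = 0.507). Cul2, which carries the von Hippel-Lindau receptor, was at 0.10 (SE 0.19), Cul9 at 0.07 (SE 0.22) and Cul7, which pairs with Fbxw8, at -0.16 (SE 0.19). Their adjusted p-values were 0.810, 0.896 and 0.673.

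**Figure D3:**
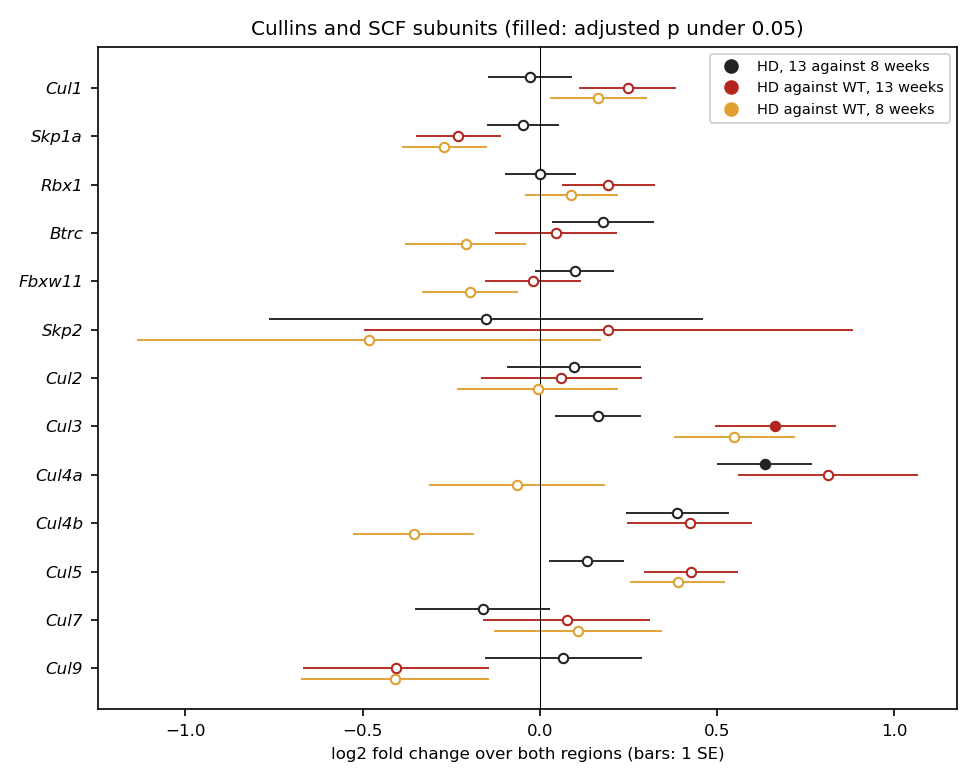
Log2 fold changes over both regions, with bars of 1 SE, for 8 cullins, 4 SCF subunits or receptors and Fbxw11 in 3 comparisons, with black for HD mice at 13 against 8 weeks, red for HD against WT at 13 weeks and yellow for HD against WT at 8 weeks. Filled points have an adjusted p under 0.05, which are Cul4a with stage (0.63) and Cul3 against WT at 13 weeks (0.66).

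By region, the fall of Fbxw7 in HD mice passed the test in cortex. There its level at 13 weeks was 42.1% of that at 8 weeks (log2 fold change -1.25, SE 0.15, edgeR adjusted p = 0.0170), and in striatum the fold change was -0.68 (SE 0.15, adjusted p = 0.111). The cortex value kept its call without either HD striatum library of 8 weeks and without either of 13 weeks, but not without any 1 of the 4 HD cortex libraries (highest adjusted p 0.326). The striatum value passed the test without replicate 1 (-0.65, adjusted p = 0.0206) or replicate 2 (-0.75, adjusted p = 0.00764) of HD striatum at 8 weeks, but the spread then came from the other groups only, and the library left was assumed to vary like them. The difference between the regions, striatum less cortex, was 0.57 (SE 0.21, unadjusted p = 0.0245, adjusted p = 1), so a fall larger in one region was not shown across the genes tested. For scale, 0.591% of 14392 genes were called in cortex, 0.16% in striatum and 0% for the difference.

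Among the other members, Fbxo34 fell in cortex and was the only other call there, giving 2 of 67 members (2.99%). It had 109 and 92.8 CPM in HD cortex at 8 weeks and 47.6 and 45.5 CPM at 13 weeks (log2 fold change -1.12, SE 0.19, edgeR adjusted p = 0.0487). In HD striatum it had 42.5 and 35.7 CPM at 8 weeks and 46.5 and 35.7 CPM at 13 weeks, and these groups overlapped. Its difference between regions was 1.23 (SE 0.27, unadjusted p = 0.00152, adjusted p = 1). The call in cortex was lost without any 1 of the 4 HD cortex libraries or either HD striatum library of 13 weeks (highest adjusted p 0.483). In striatum, 0 of 67 members were called by edgeR, with 9 at an unadjusted p under 0.05, and DESeq2 called 1, Fbxw7. For the difference between regions, 0 of 67 were called, with 2 at an unadjusted p under 0.05, and DESeq2 called 0.

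**Figure D4:**
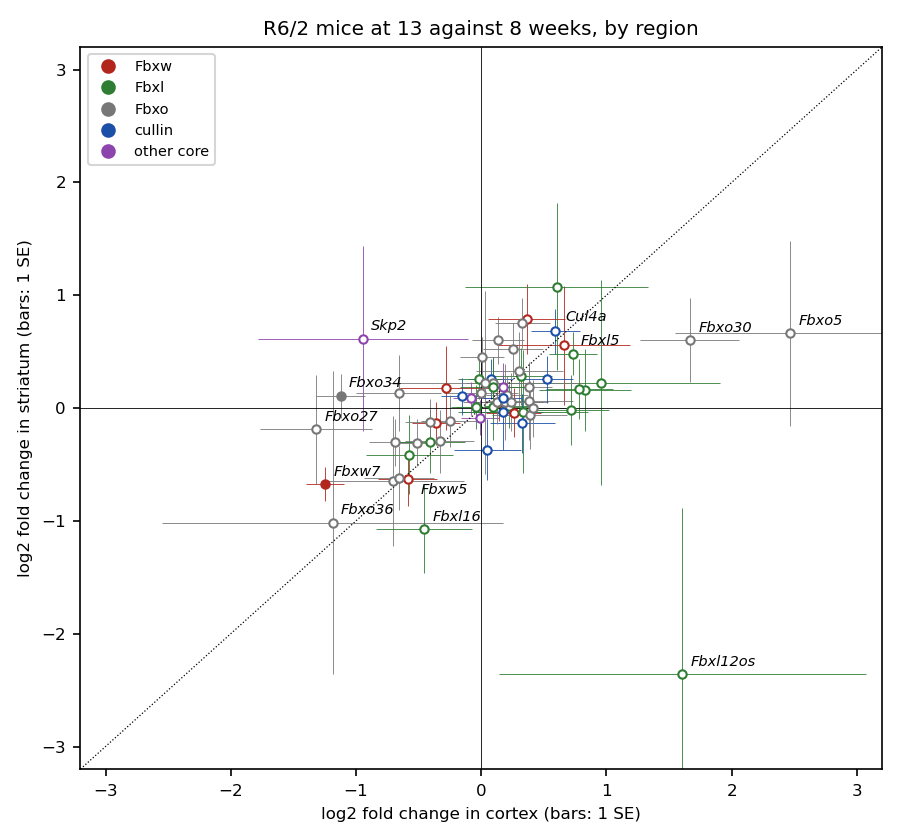
Log2 fold change of 67 members in HD mice at 13 against 8 weeks in cortex (horizontal) and striatum (vertical), with bars of 1 SE in each direction and a dotted line of equal change. Fbxw7 (-1.25 and -0.68) and Fbxo34 (-1.12 and 0.11), filled, had an adjusted p under 0.05 in cortex, and Fbxl12os, an antisense RNA of few reads, lies alone at the lower right.

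Fbxl16, named here after its values were seen, differed between replicate 2 of HD striatum at 8 weeks and its partner. In striatum it had 1114 and 1050 CPM in the WT libraries of 8 and 13 weeks and 1054 CPM in replicate 1 of HD mice at 8 weeks. It had 384 CPM in replicate 2 at 8 weeks and 320 and 344 CPM at 13 weeks. In cortex it had 443 and 508 CPM in WT mice, 604 and 637 CPM in HD mice at 8 weeks and 444 and 466 CPM at 13 weeks. Its striatal levels thus fell into a high and a low set, and replicate 2 at 8 weeks, in which the striatal neuron markers were also low, lay with the later HD libraries. The log2 fold change with stage was -0.76 over both regions (SE 0.28, adjusted p = 0.153) and -1.07 in striatum (SE 0.39, adjusted p = 0.313). With all HD libraries it was called over both regions by DESeq2 and not by edgeR. In simulated data DESeq2 made more false calls than edgeR (18.9% against 7.01% of calls). Those counts were drawn with edgeR's own estimates of spread and no difference between regions, so they cannot rank the tools on these libraries. The part of tissue composition in the change of Fbxl16 was not tested.

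The second comparison set HD mice against WT littermates of the same age over both regions, using all 12 libraries and adjusting for region. At 13 weeks Fbxw7 and Fbxw2 were lower in HD mice and Cul3 was higher. These 3 were 4.48% of 67 members, against 7.36% of all 14706 genes, with 3.1% of all genes called higher and 4.26% lower. Before adjustment, 12 members had a p under 0.05. The share of counts from the ribosomal RNA precursor Rn45s was 10.5% to 15.2% in HD mice and 4.32% to 5.62% in WT mice, and its part in these differences was not tested. With 1 WT library for each region and age, the test holds no spread between WT mice of one age and region.

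WT mice had 263 CPM of Fbxw7 in striatum and 604 CPM in cortex at 13 weeks, above both HD libraries in each region. The HD level was 53.7% of that of WT mice (log2 fold change -0.90, SE 0.15, edgeR adjusted p = 0.00597), again with the lowest p of any member. Fbxl16 alone had a lower fold change (-0.91, SE 0.43, adjusted p = 0.254). Without either WT library of 13 weeks the Fbxw7 call was lost (highest adjusted p 0.114), and with the other 10 libraries left out in turn it was kept. With sex as a term it was -0.94 (adjusted p = 0.0101).

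Fbxw2 had 84.9 CPM in WT striatum and 90.5 CPM in WT cortex at 13 weeks, 57.3 and 61.0 CPM in HD striatum and 67.6 and 54.7 CPM in HD cortex (log2 fold change -0.54, SE 0.15, edgeR adjusted p = 0.0475). Its call held in 2 of the 12 fits that left out a library, those without replicate 1 or replicate 2 of HD striatum at 8 weeks, and the highest adjusted p without another library was 0.389. Cul3 had 37.0 and 40.6 CPM in WT striatum and cortex, 52.2 and 66.7 CPM in HD striatum and 65.0 and 62.2 CPM in HD cortex (log2 fold change 0.66, SE 0.17, edgeR adjusted p = 0.0359). Its call held in 5 of the 12 such fits and was lost without either HD cortex library of 8 or 13 weeks, without replicate 2 of HD striatum at 13 weeks and without either WT library of 13 weeks (highest adjusted p 0.345). Cul3 overlaps the annotated genes Gm37902 and Gm37262 on its own strand.

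The cullins had 7 of 8 log2 fold changes above zero in this comparison, with a median of 0.33 against 0.01 over all genes, and 1 of the 8, Cul3, was called. A shift of the cullins as a set was not tested. Cul7 (0.08, SE 0.24, adjusted p = 0.891) and Cul2 (0.06, SE 0.23, adjusted p = 0.913) were near zero, and Cul9 was at -0.41 (SE 0.26, adjusted p = 0.412). Cul4a was at 0.81 (SE 0.25, adjusted p = 0.0741), Cul5 at 0.43 (SE 0.13, adjusted p = 0.0745), Cul4b at 0.42 (SE 0.18, adjusted p = 0.173) and Cul1 at 0.25 (SE 0.14, adjusted p = 0.316). Skp1a was at -0.23 (SE 0.12, adjusted p = 0.288), Rbx1 at 0.19 (SE 0.13, adjusted p = 0.432), Btrc at 0.05 (SE 0.17, adjusted p = 0.912), Skp2 at 0.19 (SE 0.69, adjusted p = 0.907) and Fbxw11 at -0.02 (SE 0.14, adjusted p = 0.954).

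At 8 weeks Fbxl18 was higher in HD mice and was the only member called, 1 of 67 (1.49%) against 2.1% of all genes, of which 1.95% were higher and 0.15% lower. It had 7.83 CPM in WT striatum and 8.25 CPM in WT cortex, 16.8 and 18.4 CPM in HD striatum and 20.8 and 18.5 CPM in HD cortex. The HD level was 231% of the WT level (log2 fold change 1.21, SE 0.24, edgeR adjusted p = 0.0214). At 13 weeks it was 0.81 (SE 0.23, adjusted p = 0.0531), with HD levels of 17.0 and 10.9 CPM in striatum and 16.8 and 13.1 CPM in cortex against 7.63 and 8.81 CPM in WT mice. Its call at 8 weeks held in 8 of 12 fits that left out a library and was lost without either HD cortex library or either WT library of that age (highest adjusted p 0.221). D430018E03Rik overlaps it on the same strand. Cul3 was at 0.55 at this age (SE 0.17, adjusted p = 0.151).

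Fbxw7 was not called at 8 weeks, where it ranked 31 of 67 members by fold change (log2 fold change -0.12, SE 0.16, adjusted p = 0.804). The regions lay on opposite sides of WT. HD striatum had 256 and 240 CPM against 328 CPM in WT striatum, and HD cortex had 724 and 703 CPM against 636 CPM in WT cortex. In a fit with a mean for each of the 8 groups, the fold change was -0.41 in striatum (SE 0.19, adjusted p = 0.445) and 0.16 in cortex (SE 0.19, adjusted p = 0.916). These 2 tests by region were added after the values were seen. Called genes in them made up 0.228% of 15337 in striatum and 0% in cortex. Of 69 members, edgeR called 0 in both, with 7 and 6 at an unadjusted p under 0.05, and DESeq2 was not run.

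In WT mice Fbxw7 went from 328 to 263 CPM in striatum and from 636 to 604 CPM in cortex between the ages (log2 fold change -0.20, SE 0.18, adjusted p = 1). The change in HD mice less the change in WT mice was -0.78 (SE 0.22, unadjusted p = 0.00403, adjusted p = 0.242), so that a fall particular to HD mice was not shown across the genes tested. Of 67 members, only Fbxo36 (-1.39, SE 1.38) and Fbxo27 (-0.80, SE 0.61) had lower values. The WT libraries were male at 8 weeks and female at 13 weeks, so age and sex cannot be told apart within WT mice. With sex as a term, which only the HD mice estimate, Fbxw7 was at -0.11 for the WT ages (edgeR adjusted p = 0.994). For the difference of changes it was then at -0.87 (adjusted p = 0.294). No member passed the test for the WT age difference, where 0.0136% of genes did, or for this difference of changes, where 0.116% did. Unadjusted p-values under 0.05 were found for 1 and 6 members. DESeq2 called 0 members in both. Fbxw9 had the lowest unadjusted p of any member for the difference of changes (1.24, SE 0.35, unadjusted p = 0.00366, adjusted p = 0.234), with 18.1 CPM at 8 weeks and 10.5 CPM at 13 weeks in WT cortex and 8.20 CPM at 13 weeks in WT striatum.

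In single regions at 13 weeks, in the fit with 8 group means, Fbxw7 was at -0.80 against WT mice in striatum (SE 0.19, adjusted p = 0.0833) and in cortex its level was 49.9% of that of WT mice (SE 0.19 on the log2 scale, adjusted p = 0.116). No member of 69 was called by edgeR in either, against 0.724% and 0.111% of 15337 genes. Unadjusted p-values under 0.05 were found for 9 and 10 members, and DESeq2 called Fbxl16 and Fbxw7 in striatum and Fbxw7 in cortex. Fbxl16 was at -1.66 in striatum (SE 0.46, adjusted p = 0.160) and at -0.16 in cortex (SE 0.48, adjusted p = 0.959). EdgeR called Fbxw7 in both regions and Fbxl16 in striatum without either HD striatum library of 8 weeks, where the spread again came from the other groups only.

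The third comparison set striatum against cortex over all 12 libraries, with genotype and age as terms. Fbxw7 was the lowest of the 67 members in striatum, at 43.5% of its cortex level (log2 fold change -1.20, SE 0.11, edgeR adjusted p = 1.12e-05). Lower in striatum were 8 other members and higher were 2, giving 11 called members (16.4%) against 20.6% of all 14706 genes. Of all genes, 8.51% were called higher in striatum and 12.1% lower, and of the members 2.99% and 13.4%. The lowest Fbxw7 value of any WT or 8-week HD cortex library was 604 CPM, and the highest of any striatum library was 328 CPM. At 13 weeks the cortex of HD mice, at 301 and 304 CPM, lay within the range of 263 to 328 CPM of WT striatum.

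Of the 11 members called, 9 were Fbxo genes. Fbxo27 was lower in striatum (-1.06, SE 0.30, adjusted p = 0.0235), with 1.51 to 3.72 CPM in striatum and 3.18 to 8.27 CPM in cortex. Fbxo34 was lower (-0.84, SE 0.18, adjusted p = 0.00525), with 34.1 to 46.5 CPM in striatum and 45.5 to 109 CPM in cortex. Fbxo45, a neuronal receptor that works with the ligase PHR1 at synapses, was lower (-0.66, SE 0.10, adjusted p = 0.00075), with 36.7 to 51.7 CPM in striatum against 62.4 to 78.2 CPM in cortex, without overlap. Fbxo41, a brain-enriched member, was lower (-0.65, SE 0.12, adjusted p = 0.00179), as was Fbxo31 (-0.52, SE 0.11, adjusted p = 0.00506), a receptor for cyclin D1. Fbxo44 (-0.52, SE 0.17, adjusted p = 0.0491), Fbxo33 (-0.43, SE 0.12, adjusted p = 0.0245) and Cul1 (-0.32, SE 0.09, adjusted p = 0.0234) were also lower.

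Fbxo32, known as atrogin-1 from muscle atrophy, was higher in striatum (0.83, SE 0.20, edgeR adjusted p = 0.0121), with 38.7 to 84.2 CPM in striatum and 22.1 to 43.1 CPM in cortex. Fbxo4 was also higher (0.68, SE 0.19, adjusted p = 0.0212), with 9.91 to 14.1 CPM against 5.03 to 9.71 CPM. Fbxw7, Fbxo34, Fbxo45, Fbxo41, Fbxo31 and Fbxo32 kept their calls without each of the 12 libraries in turn. The other calls were lost in some of these fits, with highest adjusted p-values of 0.0574 for Fbxo27, 0.0645 for Fbxo4, 0.0768 for Cul1, 0.0803 for Fbxo33 and 0.147 for Fbxo44. Each of these 5 lost its call without replicate 1 of HD cortex at 8 weeks.

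**Figure D5:**
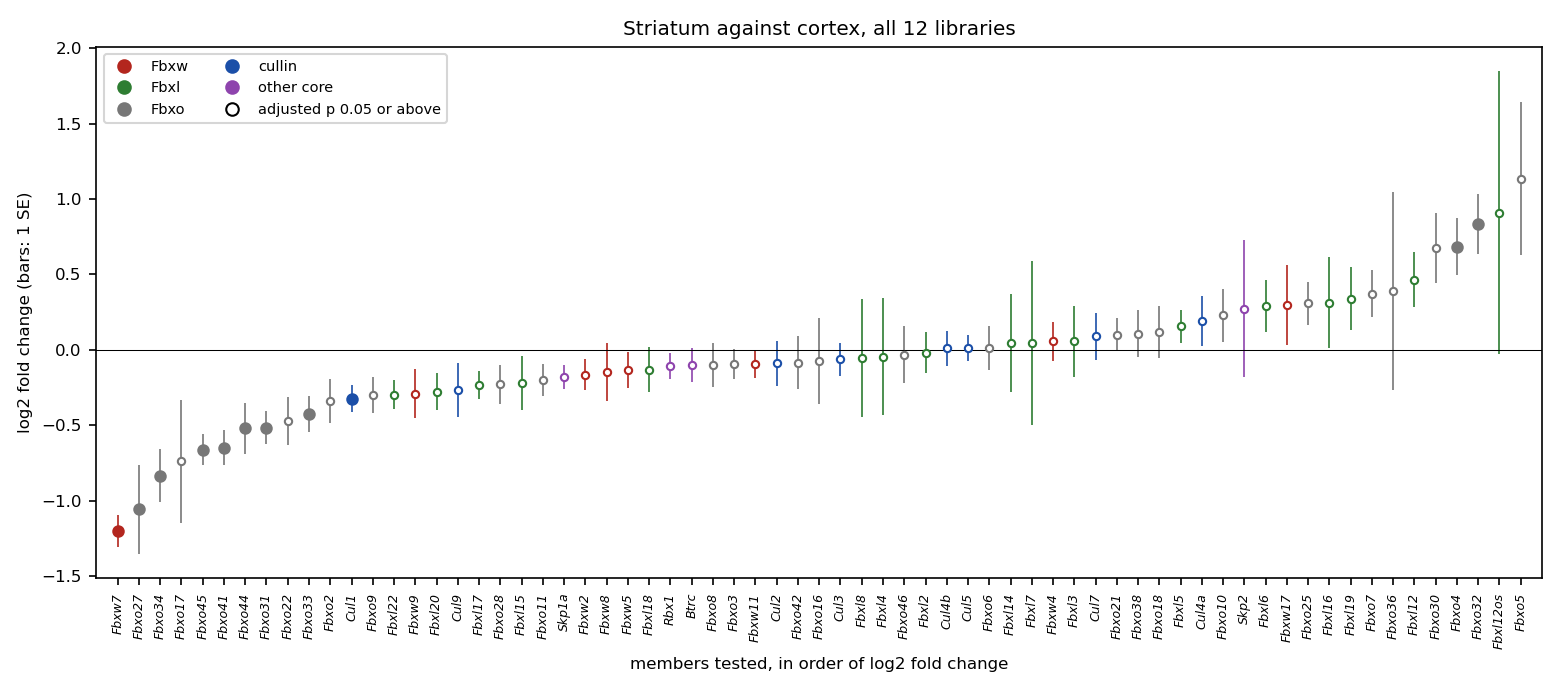
Log2 fold change of striatum against cortex over all 12 libraries for each of the 67 members tested, in rising order, with bars of 1 SE and colours for the subfamily. Filled points are the 11 members with an adjusted p under 0.05, with Fbxw7 lowest at -1.20 and Fbxo32 at 0.83 and Fbxo4 at 0.68 on the other side.

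The members whose log2 CPM, centred on the mean of each region, ran most like Fbxw7 over the 12 libraries were Fbxw5 (Pearson r 0.852), Fbxo27 (0.819) and Fbxo31 (0.741). The points share libraries and depth, and 2.54%, 3.84% and 7.17% of all genes lay above these values, so a likeness of this size was found for many genes. At the other end were Fbxl5 (-0.831), Fbxo30 (-0.803) and Cul4a (-0.69), with 98.6%, 98% and 94.3% of all genes above them. The changes with stage in HD mice enter these r values, so for Fbxw5, Fbxl5 and Cul4a they partly repeat those results. Fbxo30, named after its values were seen, had 5.15 and 6.78 CPM in HD striatum at 8 weeks and 9.04 and 8.66 CPM at 13 weeks, and in HD cortex 2.72 and 1.96 CPM against 8.76 and 6.27 CPM (1.11, SE 0.31, adjusted p = 0.0625). Fbxo31 had a log2 fold change of -0.27 with stage in HD mice (SE 0.14, adjusted p = 0.295).

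Genes that act with the ligases were taken from lists of the wider pathway. Of 11 genes for the NEDD8 pathway, which activates cullins, 0 were called with stage in HD mice or against WT mice at 13 weeks, with medians of 0.04 and -0.11. Of all genes, 6.45% and 7.36% were called in these comparisons. Ube2m, its conjugating enzyme, was lower in striatum than in cortex (-0.45, SE 0.10, edgeR adjusted p = 0.00798). Of 9 subunits of the COP9 signalosome, which removes NEDD8, 0 were called in either comparison, with medians of -0.01 and -0.14, and Cops6 had 51.2 to 68.8 CPM in all libraries. Against WT mice, 8 of the 9 were below zero at 13 weeks and also at 8 weeks, where the median was -0.26. The medians over all genes were 0.01 at 13 weeks and -0.01 at 8 weeks. With stage in HD mice, 5 of the 9 were below zero. A shift of these subunits as a set was not tested. Of 17 partners of cullin ligases, Cks1b, the cofactor of Skp2 for p27, rose with stage. It had 4.10 and 3.34 CPM in HD striatum at 8 weeks and 11.8 and 14.7 CPM at 13 weeks, and in HD cortex 5.24 and 3.59 CPM against 12.7 and 12.3 CPM (log2 fold change 1.67, SE 0.23, edgeR adjusted p = 0.00501). Its WT levels of 6.93 and 6.96 CPM in striatum and 3.74 and 6.60 CPM in cortex lay below both HD libraries of 13 weeks (0.92 against WT at 13 weeks, SE 0.30, adjusted p = 0.0874). Usp28, a deubiquitinase that opposes FBXW7, was at -0.75 with stage (SE 0.37, adjusted p = 0.267) and at -1.39 against WT mice at 13 weeks (SE 0.40, adjusted p = 0.0562).

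Of 17 genes for known FBXW7 substrates, 16 were tested, and 8 had log2 fold changes above zero and 8 below with stage in HD mice, with a median of -0.04. Mycn and Nfkb2 fell, 2 of the 16, while 4.53% of all genes fell. Mycn had 4.45 and 4.63 CPM in HD striatum at 8 weeks and 0.746 and 0.642 CPM at 13 weeks, and in HD cortex 4.09 and 8.81 CPM against 2.58 and 2.47 CPM (-1.93, SE 0.42, edgeR adjusted p = 0.0257). Nfkb2 had 246 and 119 CPM against 96.1 and 117 CPM in HD striatum, and 310 and 313 CPM against 170 and 182 CPM in HD cortex (-0.79, SE 0.19, adjusted p = 0.0408). Against WT mice at 13 weeks 0 of the 16 were called, and Mycn was at -1.56 (SE 0.45, adjusted p = 0.0548). These are transcript levels, whereas FBXW7 acts on the proteins.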

How the data were processed

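Gene counts from 12 brain libraries were analysed. The authors deposited raw counts per gene symbol, 1 table per library, without normalization. Per the labels, Trizol was used to extract RNA and QuantSeq 3′ libraries were sequenced. The submitters' processing notes name Bowtie2, bedtools and mm10, while versions, annotation and strand setting are not given in the sources used here. Reads of overlapping genes, annotated for 47 of the 90 members in GENCODE M21, could therefore be shared. Of the 23282 rows, 4306 had no counts and 44 repeated a symbol.

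Testing was in R 4.3.3 with edgeR 4.0.16 (TMM, filterByExpr at 10 counts, quasi-likelihood with robust estimation) on all genes left by the filter, with Benjamini-Hochberg adjustment and a threshold of 0.05. HD ages were tested in the 8 HD libraries, adjusting for region or with a mean per group, and genotypes and regions in all 12. Libraries entered as independent samples, so p-values measure only the spread between these samples. The intervals given for genes of the SCF core were built from the SE of the edgeR fit, so they share this limit. Replicates differed by more than counting error, with a chi-square of 7.23 to 78.2 per degree of freedom. The alternatives tried were DESeq2 1.42.0, another normalization (upper quartile), the table unfiltered, at least 1 CPM in every library, voom in limma 3.58.1 with group and replicate number as a random block (the labels do not say which libraries share a mouse), sex as a term, 8 group means, a threshold of 0.01, a replicate block and leaving out each library. EdgeR, DESeq2 and voom were tested on simulated data for the HD ages over both regions and for HD against WT at 13 weeks, and the other settings were not. The simulated counts used edgeR's own estimates of spread and a common mean per gene over the libraries, without a difference between regions. In them, 200 genes had a log2 change of 1.5.

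The members, pathway lists and tests were chosen with earlier results of these data known. Named were Fbxw7, Btrc, Fbxw11, Skp1a, Skp2, Rbx1 and the cullins, members called in any comparison (up to 6 per direction in the main ones), the neighbours of Fbxw7 in fold change, the 3 members most like it, list genes called with stage or against WT at 13 weeks (up to 3 per direction), Usp28 and Cops6. Fbxo33, Fbxw9, Fbxw17, Ube2m and members listed by name in counts were named after their values were seen. Promoter windows came from RefSeq (GRCm38.p6).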

Additional observations from a re-analysis of the deposited data

Results flagged for a closer look

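For 9 results of members tested by name above, both HD libraries lay on one side of the WT library in striatum and on the other side in cortex. This was a frequent arrangement, found for 13 of 69 members (18.8%, against 18.8% of all 15337 genes) at 8 weeks and for 14 of 69 (20.3%, against 14.5%) at 13 weeks, with 1 WT library behind each. Fbxo22 and Fbxo38 at 8 weeks and Fbxo5, Fbxo7 and Fbxl12os at 13 weeks, named above only in counts, lists or a caption, had it too. The difference between regions, striatum less cortex, was tested by edgeR in the fit with a mean for each of the 8 groups, a test added after the values were seen. No gene had an adjusted p under 0.05 for it at either age (0% of 15337 genes, DESeq2 not run), and of the members 6 at 8 weeks and 3 at 13 weeks had an unadjusted p under 0.05.

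At 8 weeks HD striatum was lower than WT and HD cortex higher for Fbxw7 (log2 difference -0.57, SE 0.27, unadjusted p = 0.0628, adjusted p = 0.881), Cul4a (-1.24, SE 0.37, unadjusted p = 0.00731, adjusted p = 0.603), Rbx1 (-0.44, SE 0.26, adjusted p = 0.894), Fbxo27 (-1.55, SE 0.80, adjusted p = 0.886) and Fbxl16 (-1.12, SE 0.68, adjusted p = 0.894). Cul7 had the opposite arrangement (0.76, SE 0.48, adjusted p = 0.894). For Cul4a the WT level was 28.8 CPM in striatum and 12.7 CPM in cortex, while the 4 HD libraries of that age lay between 18.5 and 20.8 CPM. For Fbxl16 the HD striatum libraries of that age had 1054 and 384 CPM against 1114 CPM in WT striatum. Only the second of them, which also stood apart in its markers, lay far from WT.

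At 13 weeks HD striatum was higher than WT and HD cortex lower for Fbxo34 (0.68, SE 0.35, adjusted p = 1) and Fbxo44 (0.62, SE 0.48, adjusted p = 1), and the reverse held for Fbxo41 (-0.21, SE 0.38, adjusted p = 1).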

How the results depend on the processing

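Fbxw7 kept an adjusted p under 0.05 with stage in HD mice in all 14 alternatives (log2 fold change -1.07 to -0.90) and against WT mice at 13 weeks in 17 of 19, while Cul3 kept it in 11 of 19, Fbxw2 in 6 of 19, Fbxl5 and Cul4a in 8 of 14, Fbxw5 in 5 of 14 and Fbxl18 at 8 weeks in 14 of 19. DESeq2 called 9 members with stage over both regions instead of 4, 1 instead of 0 in striatum, 7 instead of 3 against WT at 13 weeks, and against WT in single regions 2 in striatum and 1 in cortex instead of 0 and 0. In the simulated data DESeq2 made a larger share of false calls than edgeR, but those counts were drawn with edgeR's own estimates of spread. At an adjusted p under 0.01 the counts were 1 with stage, 0 in cortex, 1 against WT at 13 weeks, 0 at 8 weeks and 5 between regions. Upper-quartile normalization left 1 call in cortex instead of 2, no filter gave 1 in cortex against WT at 13 weeks, and 8 group means gave 0 at 8 weeks. With 1 library left out, the counts ranged from 1 to 7 with stage over both regions, 0 to 4 in striatum, 0 to 8 in cortex, 0 to 1 for the difference between regions, 0 to 7 against WT at 13 weeks, 0 to 1 at 8 weeks, 6 to 15 between regions, and 0 to 2 in striatum and 0 to 1 in cortex against WT at 13 weeks. The 7 with stage and the 7 against WT at 13 weeks came without replicate 2 of HD striatum at 8 weeks, and the 0 against WT at 13 weeks without either WT library of that age. The cause was not tested.

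Signs turned for fold changes of members that had not passed the test. With stage, Rbx1 was -0.0157 with DESeq2, -0.000474 with voom and -0.0334 to 0.0409 without 1 library, and Cul1 was 0.01149 with upper-quartile normalization and -0.0937 to 0.0426 without 1 library. The ranges without 1 library were -0.0719 to 0.19 for Cul2, -0.0941 to 0.22 for Cul9 and -0.80 to 0.21 for Skp2. Against WT at 13 weeks, sex as a term gave -0.12 for Btrc, -0.31 for Skp2 and -0.13 for Cul2, upper-quartile normalization gave 0.0326 for Fbxw11, and voom gave -0.0079 for Skp2. The ranges without 1 library were -0.00334 to 0.0988 for Btrc, -0.0666 to 0.0167 for Fbxw11, -0.47 to 0.67 for Skp2 and -0.0872 to 0.16 for Cul2, and at 8 weeks -0.26 to 0.0323 for Fbxw7.

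With the replicate block, Fbxw7 was -0.97 with stage (adjusted p = 0.00621), 4 members were called over both regions, 2 in cortex, 0 in striatum and 0 for their difference. Deviations of same-numbered HD libraries correlated between striatum and cortex with r = 0.173 at 13 weeks and 0.105 at 8 weeks, and with 0.0162 to 0.208 over the 4 other pairs of groups. Same-numbered libraries also matched in sex, but the labels do not say that they share a mouse, so the numbers were not taken to pair the samples.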
